A study of Drosophila melanogaster with 12 samples.

Results

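Antisense RNA genes are annotated transcription units, without a known protein product, that lie on the strand opposite another gene and overlap it. They were followed here in ovaries of Drosophila melanogaster whose germline had been depleted of Sfmbt, a subunit of the Polycomb complex PhoRC, which it forms with the DNA-binding protein Pho. Members were the rows of the gene count table whose identifier maps to a symbol starting with asRNA: and whose mean count over the 6 RNA libraries was at least 10. This rule took 146 of the 490 antisense RNA genes in the table. Of the 344 genes below it, 83 had no fragment in any library. The rule looked at the mean over both groups and not at their difference. A gene could therefore pass it through 1 group alone. CR46005 passed through Sfmbt RNAi, with 26, 16 and 13 fragments against 1, 1 and 3 in mCherry RNAi. CR43767 passed through mCherry RNAi, with 314, 314 and 206 fragments against 1, 3 and 1 in Sfmbt RNAi.

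The study compared RNA from whole ovaries of 2-day-old females of 2 groups, with 3 biological replicates each. In the Sfmbt RNAi group the nanos-Gal4 driver, active in the germline, expressed a UAS hairpin against Sfmbt (Sfmbt RNAi-1, line TRiP.HMS00473). In the mCherry RNAi group the same driver expressed a UAS hairpin against mCherry, a fluorescent protein that these flies do not make. The driver and a UAS hairpin were thus common to both groups, and the somatic cells of the ovary carried no driver activity by design. Each group rests on a single hairpin. The series also holds ovary ChIP-seq with anti-Pho on yw chromatin and with anti-GFP on GFP-Sfmbt knock-in ovaries and on untagged Oregon-R ovaries, in 2 biological replicates each. The age given for the ChIP samples was also 2 days. In bulk RNA of a whole organ, fewer cells of a type and less RNA per cell cannot be told apart.

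When both strands of a region are transcribed, the RNAs can pair into double-stranded RNA, which Dicer-2 cuts into endogenous small interfering RNAs in flies. The polymerases can also collide, or the act of antisense transcription can change the chromatin at the promoter of the sense gene, and many annotated antisense RNAs have no known function. Such RNAs are usually much less abundant than the mRNA they overlap. They can be measured only where the library keeps the strand of the RNA, as the TruSeq Stranded mRNA kit used here does. That kit selects polyadenylated RNA, so an antisense RNA with no poly(A) tail is not measured.

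The depth was 34057506 to 47315104 counted fragments in the Sfmbt RNAi libraries and 36660629 to 51297961 in the mCherry RNAi libraries. Sfmbt (2L:13169649-13176785) averaged 41.4 ± 4.15 CPM (counts scaled to a common library total) in Sfmbt RNAi and 130 ± 13.5 CPM in mCherry RNAi (SD, n = 3 each). Its log2 fold change was −1.65 ± 0.11 SE (edgeR adjusted p = 0.000132, by the Benjamini-Hochberg or BH method over all genes). This checks the labels of the count columns, whose letter for Sfmbt RNAi was read by elimination. Of 9724 genes with a mean count of at least 10, 33.9% were called by edgeR (quasi-likelihood test, BH-adjusted p of at most 0.05). Marker lists of the cells an ovary dissection can hold also moved with the groups. The 9 chorion genes, made by late follicle cells, were all lower, with a summed level of 7553 to 20199 CPM in Sfmbt RNAi and 35265 to 50509 CPM in mCherry RNAi. The 6 gut genes summed to 0.587, 100.2 and 37.6 CPM in Sfmbt RNAi replicates 1 to 3 and to 128, 901 and 1542 CPM in mCherry RNAi replicates 1 to 3, and 0 of the 6 were called in edgeR (3 at an unadjusted p under 0.05, and 3 called in DESeq2). Of 5 testis genes tested 4 were higher, with sums of 17.5 to 21.7 CPM in Sfmbt RNAi and 4.43 to 5.58 CPM in mCherry RNAi. Of 6 germline genes 3 were higher and 1 lower (1139 to 1398 CPM in Sfmbt RNAi, 898 to 1179 CPM in mCherry RNAi), and of 7 other follicle cell genes 1 was lower (6551 to 9916 and 7828 to 9837 CPM). None of 6 muscle sheath, 3 fat body and 5 hemocyte genes was called in edgeR (0, 1 and 0 at an unadjusted p under 0.05, and 0, 1 and 0 called in DESeq2). Their sums overlapped between groups, with 427 to 1331, 158 to 714 and 447 to 793 CPM in Sfmbt RNAi and 847 to 1144, 269 to 616 and 442 to 484 CPM in mCherry RNAi, and no matched marker was at 0 in all libraries. The 4 mitochondrial transcripts listed summed to 47483 to 85897 CPM in Sfmbt RNAi and 121356 to 158019 CPM in mCherry RNAi. The part of these shifts in the results on antisense genes was not tested. A fit took the chorion level as a covariate. That level did not overlap between the groups, so this fit cannot tell it apart from the group.

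Antisense RNA genes were weakly expressed, and every one of the 146 shared exon bases with a gene on the other strand. Their mean counts ran from 10 to 731.3 with a median of 36.4. Per length, the median level was 0.887 CPM per kb of exon, with a range of 0.0426 to 10.5. The gene that shares the most exon bases with a member on the other strand is called its partner here. Partners had a median level of 14.3 CPM per kb, and the median member stood at 9.18% of its partner's level per length. At the extremes, 22 members lay at or under 1% of their partner and 30 lay above it. The partners of 19 members had a mean count under 10, so a percentage of their level rests on few fragments. How many of the 30 have such a partner was not counted. Exons overlapped by 53 to 2779 bases, with a median of 622, which was 60.6% of the member's exon length at the median and all of it in 7 members. Of the 146 members 58 had a single exon. The 6 highest members per length were CR44599, CR45126, CR44124, CR42254, CR43463 and CR45601, at 10.5, 10.1, 8.68, 8.59, 8.50 and 7.87 CPM per kb. Of these, CR44124 (X:17578689-17579135, plus strand), inside Ankle2, had 2.48, 3.55 and 4.34 CPM in Sfmbt RNAi and 3.10, 2.91 and 2.95 CPM in mCherry RNAi, with overlapping groups (log2 fold change 0.21 ± 0.27 SE, edgeR BH-adjusted p = 0.593). CR42254 (2R:14769599-14771295, minus strand), head to head with BEAF-32, had 11.7, 13.8 and 11.4 CPM in Sfmbt RNAi and 10.5, 11.05 and 12.2 CPM in mCherry RNAi, again overlapping (log2 fold change 0.13 ± 0.13 SE, edgeR BH-adjusted p = 0.495). Just inside the count limit, CR46005 had 26, 16 and 13 fragments in Sfmbt RNAi and 1, 1 and 3 in mCherry RNAi, and CR45214 had 8, 5 and 7 against 11, 12 and 18. Just outside it, CR43465 had 11, 11 and 8 fragments in Sfmbt RNAi and 15, 8 and 4 in mCherry RNAi, and CR43615 had 2, 5 and 15 against 5, 5 and 24.

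Strand assignment is never complete, so a trace of sense RNA counted on the wrong strand could appear as antisense RNA. The lowest antisense share under such cover was that of CR45601 (X:10054235-10055109, minus strand), which lies inside the span of Yp1, a yolk protein gene. Yp1 had 8446, 7393 and 5150 CPM in Sfmbt RNAi and 4609, 5311 and 4543 CPM in mCherry RNAi, and its antisense gene stood at 0.215% of that level per length. Partners covered at least 80% of the exons of 35 members. This was the lowest value among the 26 of them whose partner had a mean count of at least 10, where the median was 7.20%. CR45601 itself had 4.93, 4.34 and 8.23 CPM in Sfmbt RNAi and 2.31, 3.04 and 18.5 CPM in mCherry RNAi. The value of 18.5 in mCherry RNAi replicate 3 stood apart from the other 5, and the log2 fold change was −0.44 ± 0.86 SE (edgeR BH-adjusted p = 0.735).

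After germline depletion of Sfmbt, changes among antisense RNA genes leaned to rises. Of the 146 members 31 were higher, 11 were lower and 104 did not pass an adjusted p of 0.05. That is 21.2% higher and 7.53% lower, where all 9724 genes tested had 14.7% higher and 19.2% lower. In total 28.8% of members were called, fewer than the 33.9% of all genes, and the median standard error of a member's log2 fold change was 0.345 against 0.117 over all genes. The 3549 other genes within the members' range of mean counts had 13.8% higher and 10.3% lower. Named lncRNA genes had 38 higher and 23 lower of 186 under the same count rule. The median log2 fold change was 0.27 over the members, 0.24 over lncRNA genes, −0.06 over the partners tested and −0.04 over all genes. These shares describe the classes side by side, and the difference between classes was not tested.

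**Figure D1:**
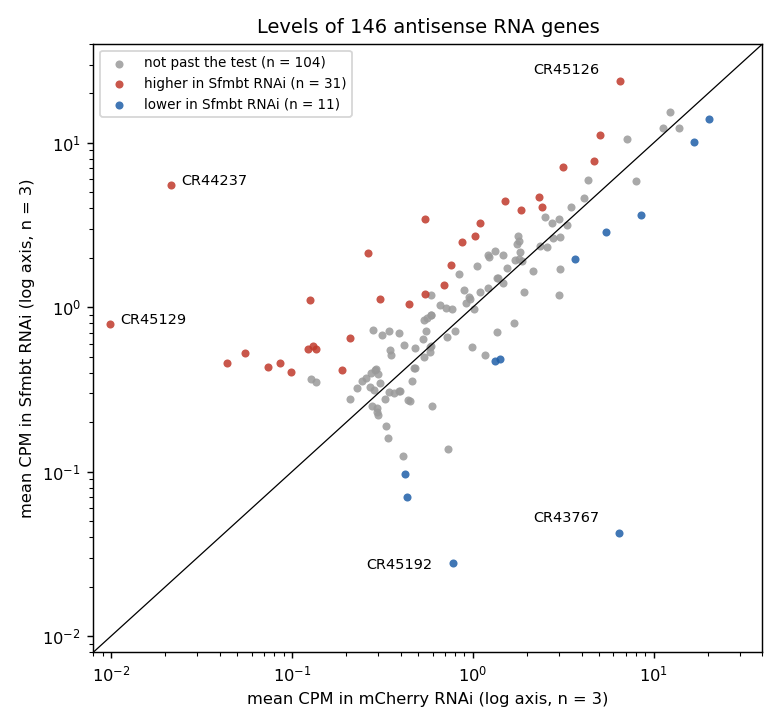
Mean TMM-normalised CPM of the 146 antisense RNA genes in Sfmbt RNAi on the y axis against mCherry RNAi on the x axis, both log axes, 1 point per gene over 3 libraries a group, coloured by the edgeR call; the diagonal marks equal levels. Of the coloured points 31 lie above the diagonal and 11 below it, with CR44237, CR45129 and CR43767 farthest from it.

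Every one of the 42 called members had groups that did not overlap, and 28 of the rises and 7 of the falls were 2-fold or more (4.87% and 4.66% of all genes). A further 32 members had groups that did not overlap without a call, which brings the count to 74 members, 56 higher and 18 lower, where over all genes 49.9% were separated in this way, 22.4% higher and 27.5% lower. Calls depended on single libraries: 16 of the 31 rises and 3 of the 11 falls kept their call whichever library was left out. All 42 kept their direction, which groups that do not overlap all but fix in advance. Without mCherry RNAi replicate 2 there were 16 rises and 5 falls, and the falls numbered 3 without mCherry RNAi replicate 3, 6, 4 and 7 without Sfmbt RNAi replicates 1, 2 and 3. With the summed chorion level as a covariate, only CR44237 and CR45126 kept their calls (edgeR BH-adjusted p = 0.0326 and 0.0372). In that fit the standard errors of the called members were 2.24 times as large at the median, all 42 kept their direction, and 37 kept at least 0.5 of their log2 fold change.

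**Figure D2:**
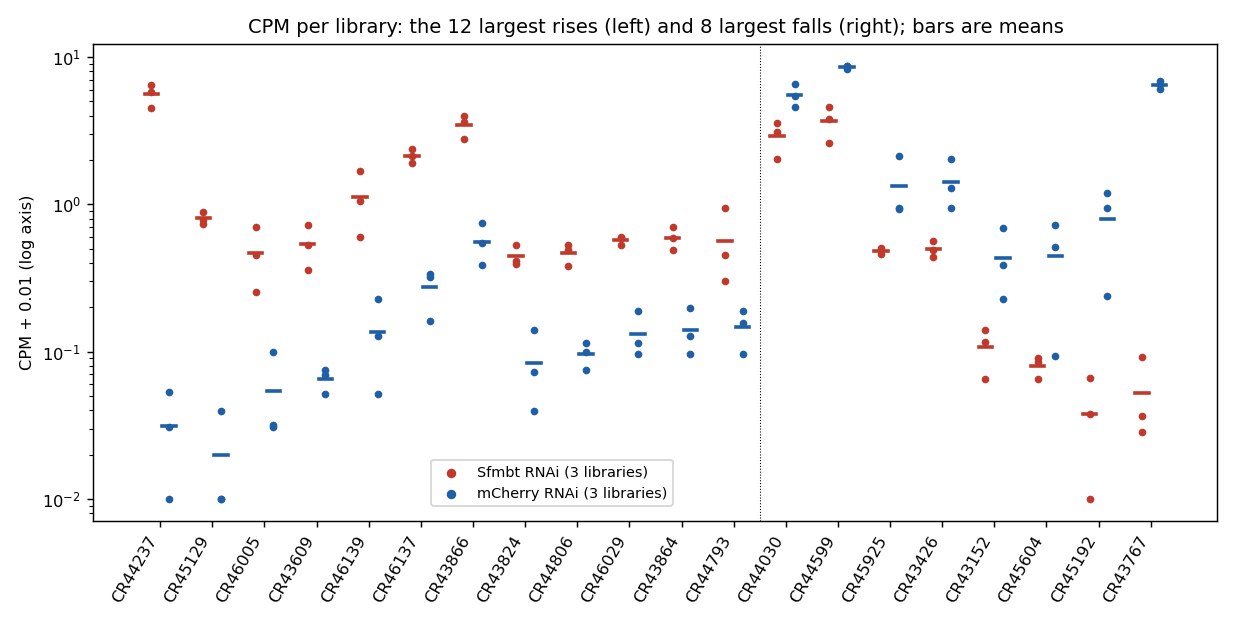
TMM-normalised CPM plus 0.01, on a log axis, in the 3 Sfmbt RNAi (red) and the 3 mCherry RNAi libraries (blue) for the 12 largest rises on the left and the 8 largest falls on the right; points are libraries and bars are group means. In every gene shown the points of the groups do not overlap, although the lowest mCherry RNAi library of CR45604 lies close to its Sfmbt RNAi libraries.

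The share of all fragments that fell on antisense RNA genes was also higher. The 146 members together took 313.6, 342.6 and 339.1 CPM of all counts in the Sfmbt RNAi libraries and 229.5, 226.9 and 262.2 CPM in the mCherry RNAi libraries. The groups did not overlap, and the ratio of the means was 1.385 (331.7 ± 15.8 over 239.5 ± 19.7 CPM, SD, n = 3 each; two-sided exact permutation test p = 0.1, the smallest that 3 against 3 can give). With TMM scaling, which corrects for a few genes taking much of a library, the ratio was 1.18. Without the 3 members with the highest counts, and without TMM scaling, the ratio was 1.348, beside 1.385 for all 146 members.

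CR44237 (3R:14109286-14110726, minus strand) gave the largest rise. It had 6.45, 5.80 and 4.50 CPM in Sfmbt RNAi and 0.0208, 0.0434 and 0 CPM in mCherry RNAi. This was 695 fragments over the Sfmbt RNAi libraries and 3 over the mCherry RNAi libraries, a CPM ratio of 232 (exact 95% interval from counting error, 79.2 to 1130). The log2 fold change was 7.75 ± 0.60 SE (edgeR BH-adjusted p = 0.000254), and it was 8.55 without mCherry RNAi replicate 2. Its partner Or88a, an odorant receptor gene, had 0 fragments in all 6 libraries, so this antisense RNA was detected where the sense gene was not. On the same strand CG14357 ends 425 bases upstream of it, and CG14357 had 10.6, 8.14 and 9.14 CPM in Sfmbt RNAi and 0.0624, 0.0217 and 0.0295 CPM in mCherry RNAi (log2 fold change 7.80, edgeR BH-adjusted p = 3.8e-05). Both genes were near 0 in the control libraries and present in every Sfmbt RNAi library. Whether their fragments belong to 1 transcript was not tested.

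CR45129 (2R:7325896-7335195, plus strand) lies inside the span of Dscam1, which encodes a cell adhesion receptor of the immunoglobulin superfamily with very many splice forms. It had 0.880, 0.770 and 0.726 CPM in Sfmbt RNAi and 0, 0 and 0.0295 CPM in mCherry RNAi. The single fragment in mCherry RNAi against 100 in Sfmbt RNAi gives a ratio of 100.3 (exact 95% interval from counting error, 17.6 to 4002). Its log2 fold change was 6.18 ± 0.74 SE (edgeR BH-adjusted p = 0.00141), and 8.14 without mCherry RNAi replicate 3, the library with that fragment. Dscam1 had 2.24, 2.34 and 1.82 CPM in Sfmbt RNAi and 1.37, 1.78 and 2.36 CPM in mCherry RNAi, with overlapping groups and a log2 fold change of 0.22 (edgeR BH-adjusted p = 0.619).

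In several rises the partner was an abundant or a clearly expressed gene that did not rise with its antisense RNA. CR46137 (3R:4737500-4737908, plus strand) had 2.37, 2.12 and 1.90 CPM in Sfmbt RNAi and 0.312, 0.152 and 0.325 CPM in mCherry RNAi (log2 fold change 3.01 ± 0.38 SE, edgeR BH-adjusted p = 0.00177). It lies inside tacc, which encodes a protein of centrosomes and spindles and had 200.5, 216 and 246 CPM in Sfmbt RNAi and 278, 232 and 248 CPM in mCherry RNAi (log2 fold change −0.19, edgeR BH-adjusted p = 0.201). CR44806 (2R:23908474-23908875, minus strand), inside the potassium-chloride cotransporter gene kcc, had 0.480, 0.522 and 0.372 CPM in Sfmbt RNAi and 0.104, 0.0651 and 0.0886 CPM in mCherry RNAi (log2 fold change 2.37 ± 0.39 SE, edgeR BH-adjusted p = 0.00473). The sense gene kcc fell at the same time, with a log2 fold change of −0.29 (edgeR BH-adjusted p = 0.0242). CR43866 (2L:6004167-6006333, plus strand) lies inside Gal, a beta-galactosidase gene, and had 2.75, 3.96 and 3.61 CPM in Sfmbt RNAi and 0.374, 0.738 and 0.532 CPM in mCherry RNAi (log2 fold change 2.64 ± 0.35 SE, edgeR BH-adjusted p = 0.00225). Gal itself had 2.05, 3.68 and 1.54 CPM in Sfmbt RNAi and 2.52, 16.8 and 10.6 CPM in mCherry RNAi (log2 fold change −2.04, edgeR BH-adjusted p = 0.0734). Gal was highest in mCherry RNAi replicates 2 and 3, the libraries with the highest summed gut genes, and the part of gut RNA in its values was not tested.

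CR45126 (4:459768-461413, plus strand) was the best measured rise and, per length, the second most abundant member, at 10.1 CPM per kb. It had 25.7, 21.8 and 23.8 CPM in Sfmbt RNAi and 6.11, 6.75 and 6.65 CPM in mCherry RNAi, so that each Sfmbt RNAi library held more than any mCherry RNAi library by a wide margin (log2 fold change 1.87 ± 0.11 SE, edgeR BH-adjusted p = 7.85e-05). Its exons overlap those of Taf3, a subunit gene of the general transcription factor TFIID, tail to tail. Taf3 had 197, 204 and 211 CPM in Sfmbt RNAi and 213, 192 and 191 CPM in mCherry RNAi, with a log2 fold change of 0.03 (edgeR BH-adjusted p = 0.751).

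Other rises were small in absolute level. CR46005, head to head with l(3)mbn, had 0.693, 0.440 and 0.242 CPM in Sfmbt RNAi and 0.0208, 0.0217 and 0.0886 CPM in mCherry RNAi (log2 fold change 3.40, edgeR BH-adjusted p = 0.0104). Its call was lost without mCherry RNAi replicate 2 (3.08, edgeR BH-adjusted p = 0.0541), and its log2 fold change was 4.25 without mCherry RNAi replicate 3. CR43609, inside the ionotropic receptor gene Ir21a, had a log2 fold change of 3.20 (edgeR BH-adjusted p = 0.00306), with Ir21a itself under the count limit. CR46139 and its head-to-head partner CG34112 had log2 fold changes of 3.11 and 1.31 (edgeR BH-adjusted p = 0.0112 and 0.0547), and CR46139 had 3.81 without mCherry RNAi replicate 2. CR43824 and CG34124, in whose span it lies, both rose, by log2 fold changes of 2.47 and 2.62 (edgeR BH-adjusted p = 0.0111 and 0.00247). Without mCherry RNAi replicate 2 the value of CR43824 was 3.12.

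The remaining large rises had partners with varied levels. CR46029, head to head with the guanylyl cyclase gene Gyc89Db, rose by 2.20 on the log2 scale (edgeR BH-adjusted p = 0.0063), with Gyc89Db under the count limit. CR43864, which spans CG32801, rose by 2.12 (edgeR BH-adjusted p = 0.00861) beside a log2 fold change of 1.38 for CG32801 (edgeR BH-adjusted p = 0.0808). CR44793 rose by 2.03 (edgeR BH-adjusted p = 0.0284) and its head-to-head partner, the condensin subunit gene Cap-D3, by 0.26 (edgeR BH-adjusted p = 0.0489). CR44793 lost its call without Sfmbt RNAi replicate 3 (log2 fold change 1.43, edgeR BH-adjusted p = 0.067) and without mCherry RNAi replicate 1, 2 or 3 (0.0627, 0.111 and 0.0705). The other 19 rises had log2 fold changes of 0.73 to 2.03, CR45126 among them. Chosen after their values were seen, 2 of them lie head to head with well known genes. CR43957, beside the Hedgehog pathway transcription factor gene ci, had 12.1, 13.2 and 8.28 CPM in Sfmbt RNAi and 4.28, 6.08 and 4.84 CPM in mCherry RNAi (log2 fold change 1.14, edgeR BH-adjusted p = 0.0109). CR44020, beside the germ plasm gene osk, had a log2 fold change of 0.76 (edgeR BH-adjusted p = 0.0439), a call lost whichever library was left out (edgeR BH-adjusted p = 0.056 to 0.161). With the chorion covariate the log2 fold change of CR44020 was 0.24 ± 0.52 SE (edgeR BH-adjusted p = 0.899).

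Among the 11 falls, 1 was near complete. CR43767 (2L:1158576-1159355, minus strand) had 0.0267, 0.0825 and 0.0186 CPM in Sfmbt RNAi and 6.53, 6.82 and 6.09 CPM in mCherry RNAi (log2 fold change −7.23 ± 0.50 SE, edgeR BH-adjusted p = 0.000161). Each Sfmbt RNAi library held 1 to 3 fragments of it, while the mCherry RNAi libraries differed little among themselves. Its log2 fold change was −7.99 without Sfmbt RNAi replicate 2. It overlaps Tango14 head to head, a gene whose name comes from a screen for transport and Golgi organisation. Tango14 had 37.4, 39.8 and 41.4 CPM in Sfmbt RNAi and 70.0, 72.5 and 70.3 CPM in mCherry RNAi (log2 fold change −0.84 ± 0.06 SE, edgeR BH-adjusted p = 0.000242). Sense and antisense RNA thus both fell, the antisense RNA by far more. The genes that flank CR43767 on its own strand were not called, with log2 fold changes of −0.39 for CG5080, 935 bases upstream, and −0.18 for capt, 314 bases downstream (edgeR BH-adjusted p = 0.146 and 0.0951).

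CR44599 (2L:13384822-13385403, minus strand) was the most abundant member per length, at 10.5 CPM per kb, and lies inside loqs. The loqs gene encodes a double-stranded RNA binding partner of the Dicer enzymes. CR44599 had 2.61, 4.54 and 3.80 CPM in Sfmbt RNAi and 8.23, 8.70 and 8.71 CPM in mCherry RNAi (log2 fold change −1.23 ± 0.24 SE, edgeR BH-adjusted p = 0.00898), and its call held whichever library was left out. With the chorion covariate its log2 fold change was −0.35 ± 0.41 SE (edgeR BH-adjusted p = 0.791). The loqs gene also fell, with 34.3, 39.7 and 35.5 CPM in Sfmbt RNAi and 53.1, 55.7 and 61.8 CPM in mCherry RNAi (log2 fold change −0.64, edgeR BH-adjusted p = 0.00229). Upstream on the strand of CR44599, Ing5 ends 445 bases away and had a log2 fold change of −0.50 (edgeR BH-adjusted p = 0.0133).

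Of the 11 falls 5 had their highest levels in mCherry RNAi replicates 2 and 3, the libraries with the highest summed gut genes. The share of all genes with this order of libraries was not counted, so it cannot be said that 5 of 11 is many. The 5 falls were CR45192, CR45604, CR43426, CR44030 and CR44599, the last with little spread among its mCherry RNAi libraries. CR45192, inside the sugar transporter family gene CG1208, had 0, 0.0275 and 0.0558 CPM in Sfmbt RNAi and 0.229, 0.933 and 1.18 CPM in mCherry RNAi replicates 1 to 3 (log2 fold change −4.55 ± 0.91 SE, edgeR BH-adjusted p = 0.00995). CR45604, which spans CG2061, had 0.0800, 0.0550 and 0.0745 CPM in Sfmbt RNAi and 0.0832, 0.716 and 0.502 CPM in mCherry RNAi (log2 fold change −2.57 ± 0.79 SE, edgeR BH-adjusted p = 0.0432). In CR45604 the groups are barely separated. In mCherry RNAi replicates 2 and 3 the 6 gut genes summed to 901 and 1542 CPM, and the part of gut RNA in these 5 falls was not tested. CR45604 lost its call in DESeq2 (adjusted p = 0.058) and without any single library other than mCherry RNAi replicate 1 (edgeR BH-adjusted p = 0.0918 to 0.153). The log2 fold change of CR45192 was −5.55 without Sfmbt RNAi replicate 3. With the chorion covariate it was −0.52 ± 3.37 SE (edgeR BH-adjusted p = 0.972), and that of CR45604 was −1.07 ± 2.37 SE (edgeR BH-adjusted p = 0.903). Both standard errors in that fit were larger than the changes themselves.

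Another 3 falls had log2 fold changes of −2.04 to −1.47, and each lost its call in 4 or 5 of the 6 fits that left out a library. CR43152, tail to tail with CG15721, had a log2 fold change of −2.04 (edgeR BH-adjusted p = 0.0303), and CG15721 had −1.80 (edgeR BH-adjusted p = 0.102). Its call was lost in DESeq2 (adjusted p = 0.0763), without Sfmbt RNAi replicate 1 or 2 and without mCherry RNAi replicate 1 or 3 (edgeR BH-adjusted p = 0.0529 to 0.105). CR43426, which spans CG32462, a gene with almost no fragments, had −1.53 (edgeR BH-adjusted p = 0.0201). Its call was lost without Sfmbt RNAi replicate 1 or 2 and without mCherry RNAi replicate 2 or 3 (edgeR BH-adjusted p = 0.0515 to 0.0812). CR45925 and its head-to-head partner cer, a cysteine protease inhibitor gene, both fell, by −1.47 and −0.95 (edgeR BH-adjusted p = 0.0338 and 0.00229). The call of CR45925 was lost without any library other than mCherry RNAi replicate 1 (edgeR BH-adjusted p = 0.0558 to 0.101).

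CR44030 (4:959675-962692, plus strand) went the opposite way from its partner. It had 3.07, 3.57 and 2.03 CPM in Sfmbt RNAi and 4.55, 6.49 and 5.44 CPM in mCherry RNAi (log2 fold change −0.93 ± 0.29 SE, edgeR BH-adjusted p = 0.0432). Its tail-to-tail partner fuss, which encodes a co-regulator of the Ski and Sno family, had 36.2, 35.1 and 37.1 CPM in Sfmbt RNAi and 13.6, 11.1 and 14.5 CPM in mCherry RNAi (log2 fold change 1.47 ± 0.11 SE, edgeR BH-adjusted p = 0.000236). The call of CR44030 was lost without any library other than mCherry RNAi replicate 1 (edgeR BH-adjusted p = 0.0573 to 0.165). The last 3 falls had log2 fold changes of −0.92 to −0.54. They include CR43463, inside the O-glycosylation enzyme gene Pgant35A, at −0.54 (edgeR BH-adjusted p = 0.0404) beside −0.92 for Pgant35A (edgeR BH-adjusted p = 0.000295). The call of CR43463 was lost without any library other than Sfmbt RNAi replicate 1 (edgeR BH-adjusted p = 0.0639 to 0.147).

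**Figure D3:**
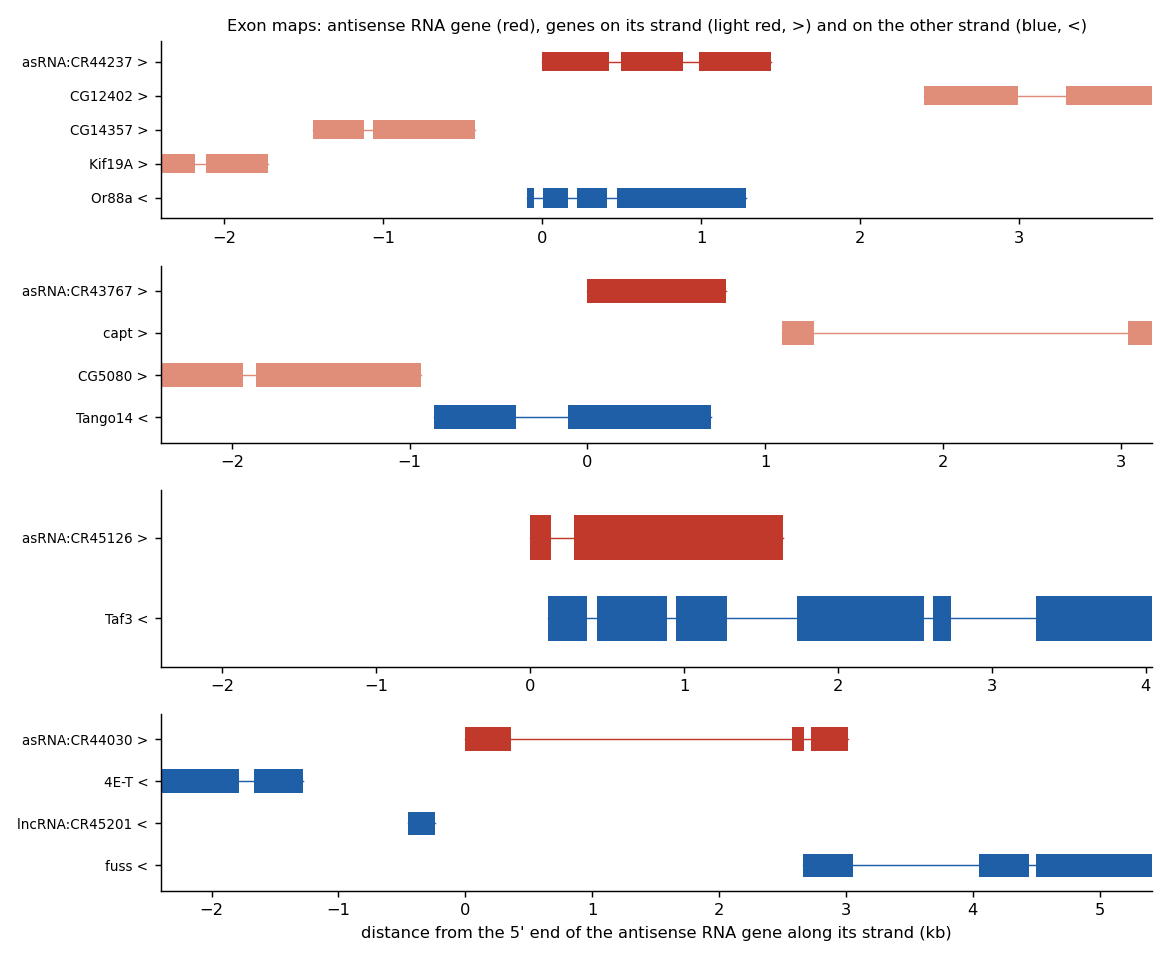
Exon maps around CR44237, CR43767, CR45126 and CR44030, with distance in kb from the start of the antisense gene along its strand on the x axis; boxes are exons, red for the antisense gene, light red for genes on its strand and blue for genes on the other strand. CR44237 and CR43767 overlap the start of Or88a and of Tango14, and CR45126 and CR44030 overlap the end of Taf3 and of fuss; CG14357 ends just before CR44237 on the same strand.

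Whether the strands of a pair changed by different amounts was asked of the ratio of antisense to partner counts in the same library, in which library size cancels. It was tested with limma over all 1441 pairs of genes that share exon bases on opposite strands and both have a mean count of at least 10, of which 39.3% passed an adjusted p of 0.05. Among the 127 pairs of members with such a partner, the ratio was higher in Sfmbt RNAi in 27, lower in 7 and not called in 93, a called share of 26.8%. Of these 34 pairs the antisense gene alone was called in 14, the partner alone in 9, both in 6 and neither in 5. Without mCherry RNAi replicate 2 the counts were 16 higher and 2 lower, and the lower ratios numbered 4 without mCherry RNAi replicate 3. With the chorion covariate 0 ratios passed in limma, with 17 higher and 4 lower at an unadjusted p under 0.05.

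The largest shifts of a ratio went both ways. For CR43767 over Tango14 the log2 ratio changed by −6.25 (limma adjusted p = 0.000127), and for CR45129 over Dscam1 by 5.31 (0.00037). Next came CR43866 over Gal with 4.41 (limma adjusted p = 0.000949), CR45192 over CG1208 with −3.53 (0.0157) and CR46137 over tacc with 3.22 (0.000612). The ratio of CR45192 lost its call without Sfmbt RNAi replicate 2 and without mCherry RNAi replicate 2 (limma adjusted p = 0.0519 and 0.0635). CR44806 over kcc, CR44030 over fuss and CR45126 over Taf3 changed by 2.56, −2.42 and 1.83 (limma adjusted p = 0.00245, 0.0012 and 0.000145).

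In 1 large shift the sense gene was called and the antisense gene was not. CR44382 (X:2071710-2072189, plus strand) had 1.79, 3.13 and 2.40 CPM in Sfmbt RNAi and 1.79, 1.71 and 1.74 CPM in mCherry RNAi (log2 fold change 0.48, edgeR BH-adjusted p = 0.244). CG4199, in whose span it lies, had 29.9, 45.6 and 38.3 CPM in Sfmbt RNAi and 151, 142 and 147 CPM in mCherry RNAi (log2 fold change −1.95 ± 0.15 SE, edgeR BH-adjusted p = 0.000248). The log2 ratio of antisense to sense changed by 2.42 (limma adjusted p = 0.000298). Of the other named pairs, CR44599 over loqs changed by −0.62 and CR42254 over BEAF-32, an insulator protein gene, by 0.42 (limma adjusted p = 0.0356 and 0.0348). CR46139 over CG34112 changed by 1.69 (limma adjusted p = 0.0379). Leaving out 1 library ended the call of CR44599 over loqs without Sfmbt RNAi replicate 1 or any mCherry RNAi replicate (limma adjusted p = 0.0556 to 0.124). That of CR42254 was lost without Sfmbt RNAi replicate 1 or 2 or mCherry RNAi replicate 1 or 2 (0.06 to 0.121), and that of CR46139 without any library other than Sfmbt RNAi replicate 1 or mCherry RNAi replicate 2 (0.0827 to 0.122).

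**Figure D4:**
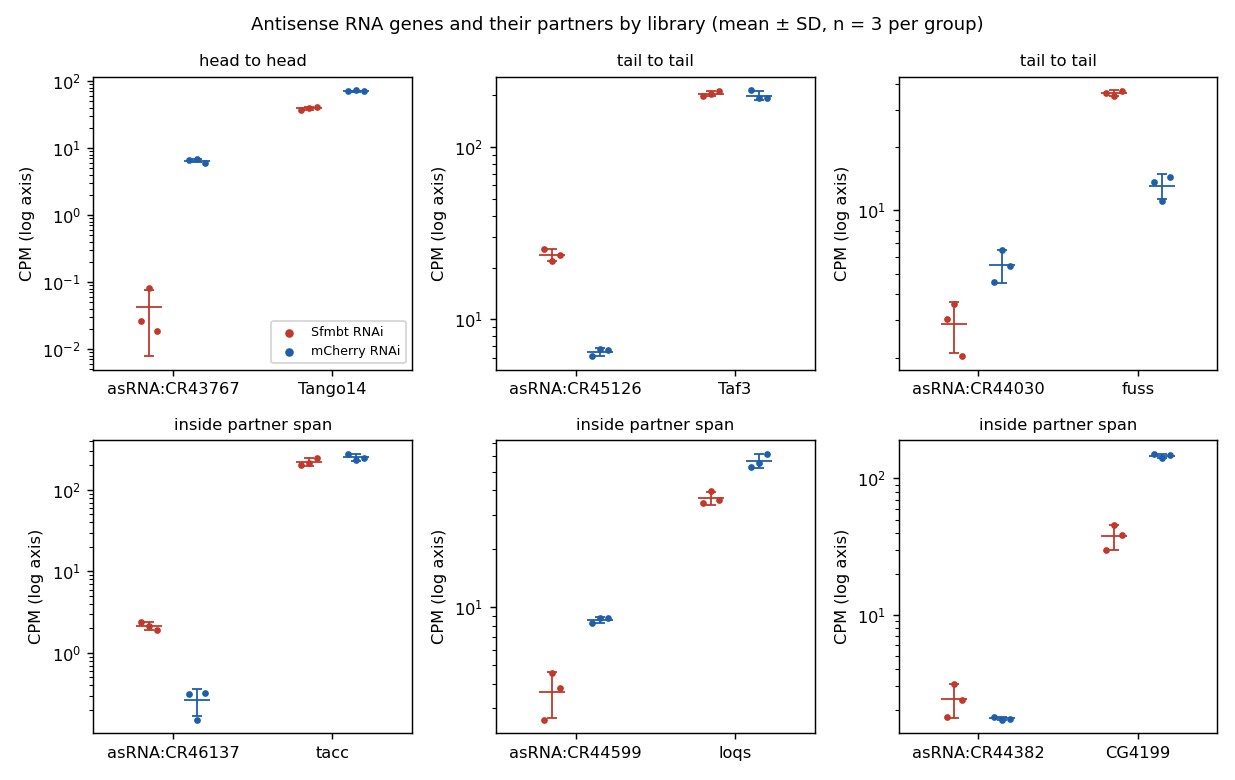
TMM-normalised CPM of 6 antisense RNA genes and their partners, on log axes, in the 3 Sfmbt RNAi (red) and 3 mCherry RNAi libraries (blue), with points for libraries and bars for the mean ± SD (n = 3). CR43767 is lower with Tango14 but by far more, CR45126 and CR46137 are higher beside Taf3 and tacc, whose groups overlap, CR44030 is lower where fuss is higher, CR44599 and loqs are both lower, and CG4199 is lower beside CR44382, whose groups overlap.

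Counting each gene's own call over the 127 pairs, 12 pairs had both genes called, 20 only the antisense gene, 30 only the partner and 65 neither. The genes of a called pair moved the same way in 8 pairs and opposite ways in 4. These counts were not made over all 1441 opposite-strand pairs, so they are given as a description. Over all single genes 33.9% were called. The opposite pairs were CR44030 with fuss, CR44806 with kcc, CR43971 with CG45071 and CR45175 with CG5567, the last 2 of which were named after their values were seen. The call of CR43971 was lost in 5 of the 6 fits that left out a library. Across the 127 pairs Pearson's r between the log2 fold changes was 0.241 and Spearman's rho 0.165, a description over genes measured in the same libraries.

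**Figure D5:**
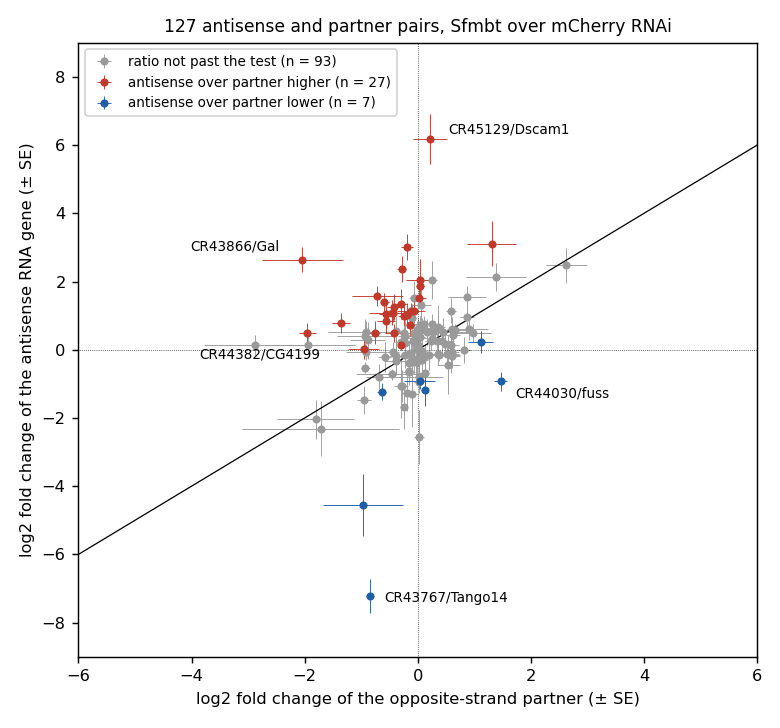
Log2 fold change (Sfmbt RNAi over mCherry RNAi, ± SE) of the antisense RNA gene on the y axis against that of its partner on the x axis for the 127 pairs tested, coloured by the call of the ratio test; the diagonal marks equal change and the axes differ in scale. CR45129 with Dscam1 at the top and CR43767 with Tango14 at the bottom lie far from the diagonal.

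Rises and falls occurred in each kind of overlap. Of 58 members that lie inside the span of their partner, 11 rose and 3 fell. Of 48 that overlap it head to head, with both starts in the overlap, 12 rose and 2 fell, and of 22 tail to tail 5 rose and 2 fell. Of 18 that span the whole partner 3 rose and 4 fell. By chromosome, X held 29 members with 6 rises and 2 falls, and over all its 1693 genes tested 374 rose and 291 fell. The small chromosome 4 held 5 members, of which CR45126 and CR43957 rose and CR44030 fell, and over all its 83 genes tested 22 rose and 6 fell. Among the 48 members with a mean count under 20, 11 rose and 3 fell, and among the 32 with 100 or more 9 rose and 6 fell. Over all genes tested 14.7% were higher and 19.2% lower. Over the other genes within the members' range of mean counts 13.8% were higher and 10.3% lower. Shares of all genes by count class or by kind of overlap were not counted. None of these differences was tested.

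A member that starts close behind a gene on its own strand can share transcripts with it, so the nearest gene ending upstream on the same strand was looked up. Of the called members 8 had one within 1000 bases. In 4 of the 8 the upstream gene was called in the same direction (CG14357 before CR44237, CG12716 before CR43152, Tsp26A before CR43866 and Ing5 before CR44599), and in 1 in the opposite direction. Tsp26A, 429 bases upstream of CR43866, had a log2 fold change of 0.48 (edgeR BH-adjusted p = 0.00754), well below that of CR43866. Within 5000 bases 16 called members had an upstream gene, which was called in the same direction in 5 and in the opposite direction in 3. Over all genes 33.9% were called in either direction, 14.7% higher and 19.2% lower, so these few upstream genes are given as a description. A further 11 members share exon bases with another gene on the same strand, where fragments are not counted for either, and 2 of these were called.

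Of the 146 antisense RNA genes 5 lay near a summit that the authors list for Pho and Sfmbt. The share of all genes near such a summit was not counted. The authors' deposited table lists 352 summits with the nearest gene, and none was assigned to an antisense RNA gene. A summit lay within 1000 bases of 5 members, inside the span of 2 of them, and within 5000 bases of 12. No summit is listed on chromosome 4, which holds 5 members. CR44093, opposite CG2182, and CR45189 (3R:30781178-30783645, minus strand), inside the zinc finger homeodomain gene zfh1, held a summit in their span. In the authors' deposited table the summit in CR45189 had 12.8 RPM, reads scaled to the library's total, for Pho, 2.00 RPM for GFP-Sfmbt and 0.504 RPM for untagged chromatin, and that in CR44093 had 6.02, 0.596 and 0.462 RPM. CR43460, inside rdx, an adaptor gene of a Cullin ubiquitin ligase, lay 133 bases from a summit. CR46194, tail to tail with the spliceosome gene SmD3, lay 366 bases away, and CR45907, beside the RNA uridylyltransferase gene Tailor, lay 686 bases from a summit assigned to alphaTub84B. For CR43460, CR46194 and CR45907 these summits had 2.89, 2.89 and 7.53 RPM for Pho. They had 0.810, 0.596 and 0.596 RPM for GFP-Sfmbt and 0.336, 0.336 and 0.294 RPM for untagged chromatin. Each is 1 value per ChIP group, with no replicates.

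None of these 5 members was called in edgeR (0 at an unadjusted p under 0.05, and 0 called in DESeq2). CR45189 had 1.97, 2.23 and 2.29 CPM in Sfmbt RNAi and 1.68, 2.02 and 1.74 CPM in mCherry RNAi, with overlapping groups (log2 fold change 0.25 ± 0.25 SE, edgeR BH-adjusted p = 0.469). Its partner zfh1 rose slightly, with a log2 fold change of 0.34 (edgeR BH-adjusted p = 0.0143). CR44093, CR46194 and CR43460 had log2 fold changes of 0.27, 0.26 and 0.50 (edgeR BH-adjusted p = 0.531, 0.503 and 0.293). CR45907 had 1.97, 1.29 and 1.54 CPM in Sfmbt RNAi and 0.499, 0.760 and 1.27 CPM in mCherry RNAi, groups that do not overlap (log2 fold change 0.93 ± 0.41 SE, edgeR BH-adjusted p = 0.118). The rdx gene fell by 0.76 on the log2 scale (edgeR BH-adjusted p = 0.00138), so that the log2 ratio of CR43460 to rdx changed by 1.20 (limma adjusted p = 0.0146). That call was lost without Sfmbt RNAi replicate 2 and without mCherry RNAi replicate 2 (limma adjusted p = 0.0514 and 0.0596). A change of the size of the standard errors given here would not have been detectable at these counts.

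The genes that act on double-stranded RNA, which paired sense and antisense RNAs can form, were called about as often as all genes. Of 15 genes of RNA interference and double-stranded RNA handling, 4 were higher, 1 was lower and 10 did not pass the test, with a median log2 fold change of 0.19; over all genes 33.9% were called, 14.7% higher and 19.2% lower. Rises included blanks, which encodes a double-stranded RNA binding protein, with a log2 fold change of 6.03 (edgeR BH-adjusted p = 5.16e-06). The other rises were AGO1 (0.30), drosha (0.32) and armi (0.42), and loqs was the gene that fell. With RLE scaling 8 were higher. Without mCherry RNAi replicate 2 or 3 blanks alone rose, 2 rose without Sfmbt RNAi replicate 3, and 7 rose without mCherry RNAi replicate 1. Of the small interfering RNA genes, AGO2 and r2d2 had log2 fold changes of 0.08 and 0.02 (edgeR BH-adjusted p = 0.45 and 0.87), and Dcr-2 had 0.19 (edgeR BH-adjusted p = 0.0638, and 0.0472 with RLE scaling). This list, like the members, was chosen with earlier results of these data known.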

How the data were processed

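RNA was measured in 6 ovary libraries, 3 Sfmbt RNAi and 3 mCherry RNAi. The authors counted fragments per gene with featureCounts 1.6.3 as reverse-stranded pairs on STAR 2.7.2a alignments to BDGP6.28 (Ensembl release 101), per the file headers and, for STAR, the submitters' processing notes; these deposited counts are not normalized. Fragments that overlap several genes on one strand or map to several places are not set to be counted. Count columns are named by letters: C was read as control (mCherry RNAi) and A, by elimination, as Sfmbt RNAi. The deposited table also gives the summed exon length of each gene in bases, another value used here for levels per kb. The second deposited table holds, per summit and ChIP group, 1 RPM value made by the authors, with no replicates; how they were pooled is not given in the sources used here. Its other deposited columns, the authors' rank scores, log2 fold changes, adjusted p-values and mean TPM, enter no result here.

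Of 17768 gene IDs 17671 matched a symbol. Genes with a mean count of at least 10 were tested with edgeR 4.0.16 (R 4.3.3), TMM scaling, the robust quasi-likelihood F-test, a design with group alone, and Benjamini-Hochberg (BH) adjustment over 9724 genes at 0.05, so every member was tested. CPM values are TMM-normalised except for the summed share. Ratios of antisense to partner counts, each plus 0.5, were tested with limma 3.58.1 (trend, robust) over 1441 pairs. Intervals cover counting error only, and the count filter of 10 limits precision at low counts. Both procedures were run on simulated counts with known fold changes and the same dispersion for every gene. That setting is simpler than these data, so no error rate for the results here is taken from it. Alternatives were RLE scaling, DESeq2 1.42.0, other filters, a replicate block, a chorion covariate and leaving out each library. Named members are the 12 largest rises and 8 largest falls called without overlap between groups, the 6 highest per kb, those within 1000 bases of a summit, the 8 largest ratio changes, and the genes on either side of the count limit. The members and lists were chosen with earlier results of these data known. 1 gene of the double-stranded RNA list is not reported here. No sequence is printed.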

Additional observations from a re-analysis of the deposited data

How the results depend on the processing

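Among the settings tried, the fewest antisense genes were called when the summed chorion genes entered the fit as a covariate. Their sums did not overlap between the groups, so the calls lost in this fit cannot be assigned to chorion level or to group. All 42 called members kept their direction and 37 kept at least 0.5 of their log2 fold change. Their standard errors were 2.24 times as large at the median. With the chorion covariate 2 antisense genes were higher and 0 lower in edgeR (20 and 2 at an unadjusted p under 0.05). In limma 0 ratios were higher and 0 lower (17 and 4), and 89 of all genes were higher and 22 lower in edgeR. Under this covariate the estimated log2 fold change of armi was −0.20, and the log2 ratio change of CR44599 over loqs was 0.022 ± 0.36 SE. Both estimates changed sign, but that of CR44599 over loqs is far smaller than its standard error, so its sign is not resolved. The cause of these changes was not tested. RLE scaling, DESeq2, no filter and filterByExpr kept 42, 37, 38 and 39 of the 42 calls (filterByExpr tested 137 members). RLE scaling moved the median of all genes by 0.031 on the log2 scale and gave 8 rises among the double-stranded RNA genes. Limiting the counts to means of at least 50 left 15 higher and 6 lower of 60 members and 17 higher and 4 lower of 51 ratios, with fewer genes tested. Without members that share exon bases on their own strand, an alternative chosen after seeing the data, 30 of 135 were higher and 10 lower. Summits within 5000 bases touched 12 members.

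Leaving out 1 library at a time gave 16 to 30 higher and 3 to 9 lower antisense genes, 665 to 1421 higher and 994 to 1804 lower over all genes, 16 to 28 higher and 2 to 6 lower ratios, 1 to 7 higher and 1 lower double-stranded RNA genes, and a ratio of summed levels of 1.349 to 1.454.

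With the replicate number as a block, 24 antisense genes were higher and 6 lower, and 29 of the 42 calls were kept. Same-numbered libraries correlated in their deviations from the group means by 0.351, 0.286 and −0.0427 for numbers 1 to 3, so the numbers were not taken to pair the libraries. Only number 1 correlated best with its own number in both groups.

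Low counts limit what could be detected: 48 members had a mean count under 20, and uncalled log2 fold changes ran from −2.32 to 1.50.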
